A study of Bos taurus with 8 samples.

Results

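Antioxidant defence was examined through 10 genes: NFE2L2 and KEAP1, which set the activity of the pathway, the detoxifying enzymes NQO1 and HMOX1, the glutathione synthesis genes GCLC and GCLM, TXNRD1 and SRXN1 of the thioredoxin system, and SOD2 and GPX4. They were taken by name as a pathway, with no threshold on any measured value but with earlier results of these data known. All 10 had a row among the 32640 genes listed. Bovine embryonic stem cells (bESCs) of 4 lines, A, C, D and E, each XX and treated as a biological replicate, were sequenced in 5% O2 on MEF (irradiated mouse embryonic fibroblasts) at passage 15 to 17 and again feeder-free on vitronectin at passage 20 to 22, giving 4 libraries per condition and 8 in all. All lines had first been derived on MEF in atmospheric oxygen and adapted to low oxygen. The base medium was the same in both conditions and carried mercaptoethanol, a thiol reducing agent, along with FGF2 and the tankyrase inhibitor IWR-1. The methods add Activin A for feeder-free culture, while the titles write the medium as NBFRA for both conditions without spelling it out. Matrix, feeder cells, passage and possibly Activin A changed together and cannot be told apart. The methods also refer to sequencing batches, for which no correction was made, and the batch of each library was not known here.

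NRF2, the protein of NFE2L2, is a transcription factor that is bound by KEAP1 and marked for degradation while the cell is not stressed. Oxidants and electrophiles modify cysteines of KEAP1, after which NRF2 accumulates, pairs with a small MAF protein and binds antioxidant response elements near its targets. NRF2 is thus controlled largely at the protein level, which RNA sequencing does not measure. The targets supply glutathione, NADPH and thiol reductases, the systems by which cells keep peroxides low.

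The data were raw counts per gene. Totals ranged from 44268717 to 54296425 on MEF and from 49671478 to 102351560 in feeder-free conditions, where line D alone lay above 51320214. Levels are given as CPM (counts relative to the library total after TMM scaling), and since transcript lengths were not used here they are compared between libraries and not between genes. The lowest count of any of the 10 genes in any library was 68, for HMOX1, so all 10 passed the filter on low counts. Mitochondrial genes took 1.91 to 4.11 percent of counts on MEF and 2.18 to 4.01 percent in feeder-free conditions, with line A highest in both. Of 10 markers of pluripotent cells 9 had a row (TDGF1 had none), and their summed level was 5515 to 6143 CPM on MEF and 4775 to 5439 CPM in feeder-free conditions. In the paired fit described next OTX2 was lower, 1 of 9 tested where 4.53 percent of all genes passed as lower.

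All 10 genes had a log2 fold change above 0 in feeder-free bESCs compared with bESCs on MEF, against 50.6 percent of the 15744 genes tested. The median over the 10 genes was 0.46 on the log2 scale, beside 0.01 over all genes tested. In the fit without pairing, 0 of the 10 passed both thresholds of edgeR's quasi-likelihood test, an adjusted P-value under 0.05 and at least a 1.5-fold change, while 0.724 percent of all genes passed as higher and 1.00 percent as lower. At an unadjusted P-value under 0.05, 5 of the 10 were higher (NFE2L2, NQO1, GCLM, TXNRD1 and SRXN1), against 10.2 percent of all genes. Of these, NQO1 and SRXN1 passed both thresholds under edgeR's likelihood ratio test and under DESeq2, and 0 of the 10 passed them under limma-voom. Over all 15744 genes, 448, 695 and 79 passed as higher under these tests, in that order. With the libraries paired by line (replicate block), NQO1, HMOX1, TXNRD1 and SRXN1 rose and none fell, 4 of 10 where 5.52 percent of all genes passed as higher and 4.53 percent as lower. Without the fold change threshold NFE2L2 also passed in the paired fit, 5 of 10 against 7.67 percent. By CPM alone, 6 of the 10 genes were higher without feeders in 4 of 4 lines, against 20.2 percent of all genes. As the 10 genes were chosen with earlier results of these data known, these shares describe them and are no independent test.

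**Figure D1:**
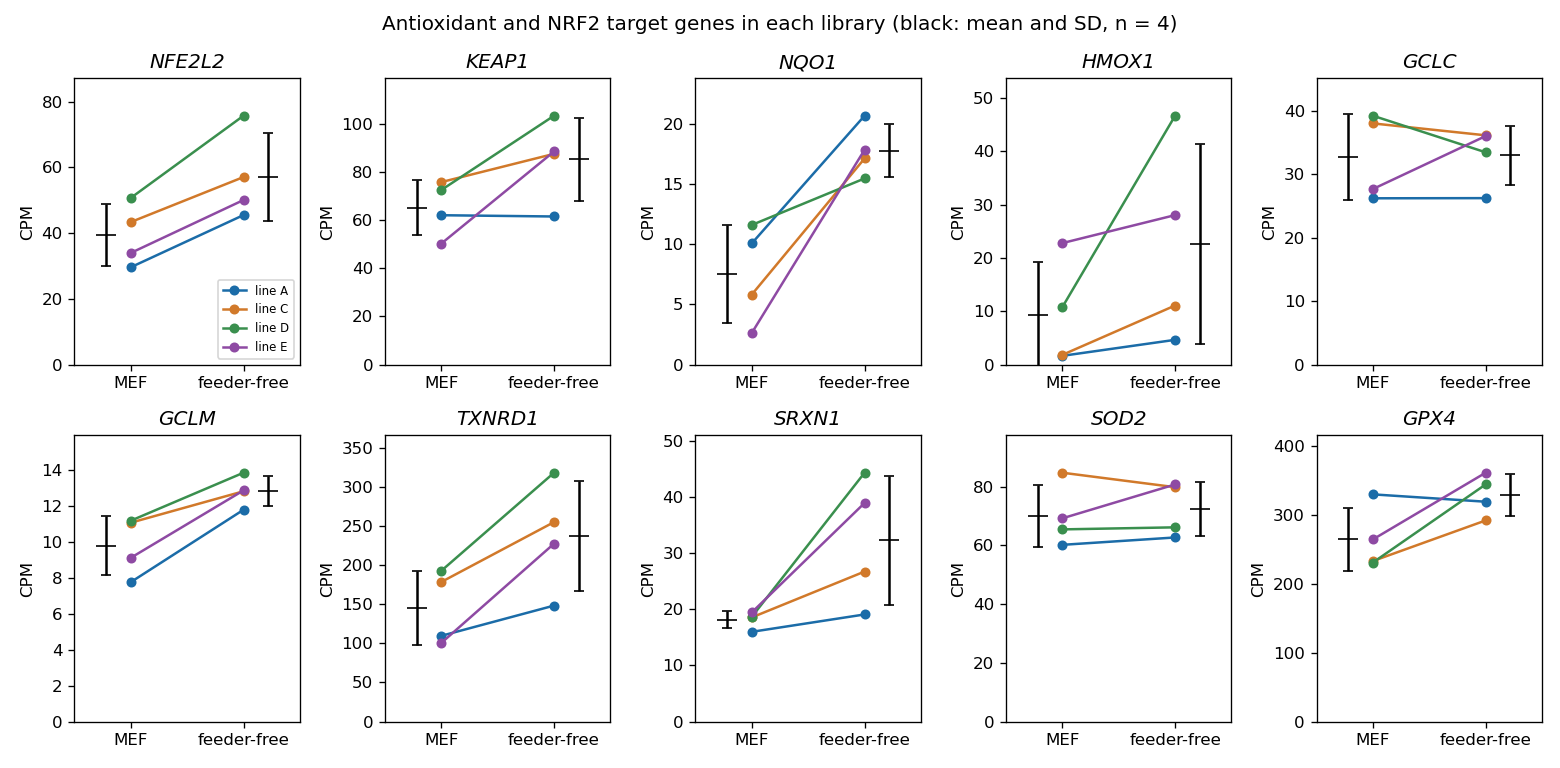
CPM of each of the 10 genes (vertical axes, each starting at 0) on MEF and in feeder-free conditions, with the libraries of a line joined and the mean and SD of 4 libraries in black (the lower bar of HMOX1 on MEF runs below 0 and is not drawn there). NQO1 and GCLM are the genes whose 4 feeder-free libraries all lie above the 4 MEF libraries, and HMOX1 has the widest spread between lines.

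Of the regulators, NFE2L2 was higher by a like amount in every line and KEAP1 was not. NFE2L2, which encodes NRF2 and lies on chromosome 2 (19617016 to 19649649 in ARS-UCD2.0), had 29.6, 43.4, 50.7 and 34.0 CPM on MEF in lines A, C, D and E, and 45.5, 57.1, 75.8 and 50.1 CPM in feeder-free conditions. Lines kept the same order in both conditions, with A lowest and D highest, and the conditions overlapped, since lines A and E without feeders lay below line D on MEF. Its log2 ratio lay between 0.40 and 0.62 in every line. The log2 fold change was 0.53 (edgeR, SE 0.21, adjusted p = 0.179), and 0.54 when paired (edgeR, SE 0.11, adjusted p = 0.0127), which is 1.45-fold and short of the fold change threshold. In the paired edgeR fit it passed both thresholds without line C (0.60, adjusted p = 0.0419), and without line D it passed neither (0.53, adjusted p = 0.0812).

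KEAP1, the adaptor that presents NRF2 to the CUL3 ubiquitin ligase (chromosome 7, 15009368 to 15018278), had 62.1, 75.9, 72.6 and 50.3 CPM on MEF and 61.6, 87.6, 103 and 88.6 CPM in feeder-free conditions. Lines D and E were clearly higher without feeders, line C slightly, and line A was level, at a log2 ratio of -0.01. The paired log2 fold change was 0.38, with a 95% confidence interval of 0.06 to 0.70 (edgeR adjusted p = 0.0983). KEAP1 overlaps LOC132345696, which had 36 to 90 counts per library, against at least 2221 for KEAP1.

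The detoxifying enzymes NQO1 and HMOX1 had the highest fold changes of the 10. NQO1 reduces quinones by a transfer of electrons that avoids radical intermediates, and is among the most widely used readouts of NRF2 activity. The gene (chromosome 18, 36784718 to 36798053) had 10.1, 5.81, 11.6 and 2.63 CPM on MEF in lines A, C, D and E, and 20.6, 17.1, 15.4 and 17.8 CPM in feeder-free conditions. All feeder-free libraries lay above all MEF libraries, as they did for 2 of the 10 genes (NQO1 and GCLM) and for 6.21 percent of all genes. The lines were spread widely on MEF and narrowly without feeders, so line E, lowest on MEF, had the highest log2 ratio, 2.75, and line D the lowest, 0.41. The log2 fold change was 1.24 unpaired (edgeR, SE 0.39, adjusted p = 0.110) and 1.41 paired (SE 0.32, adjusted p = 0.0181), a 2.65-fold rise. Without line C the paired value was 1.37, with an adjusted p of 0.0683 from edgeR's test.

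HMOX1, heme oxygenase, splits heme into biliverdin, iron and carbon monoxide. The gene (chromosome 5, 73623470 to 73630535) had 1.63, 1.82, 10.8 and 22.8 CPM on MEF and 4.63, 11.1, 46.7 and 28.0 CPM in feeder-free conditions. It was higher without feeders in 4 of 4 lines, yet without feeders line A stayed below the MEF libraries of lines D and E, and line C below that of line E. The mean was 9.25 ± 9.98 CPM on MEF and 22.6 ± 18.8 CPM without feeders (SD, n = 4 each), and the unpaired log2 fold change of 1.29 had a 95% confidence interval of -0.76 to 3.34 (edgeR adjusted p = 0.462). That value moved from 0.66 without the feeder-free library of D to 2.25 without the MEF library of E. Paired by line, the log2 fold change was 1.62 (edgeR, SE 0.32, adjusted p = 0.0122), a 3.07-fold rise. The log2 ratio was 1.49 in line A, 2.58 in line C, 2.11 in line D and 0.30 in line E. HMOX1 passed in the paired fit without any 1 of the 4 lines, at log2 fold changes of 1.31 to 2.11, and its highest adjusted p was 0.0498, without line C.

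**Figure D2:**
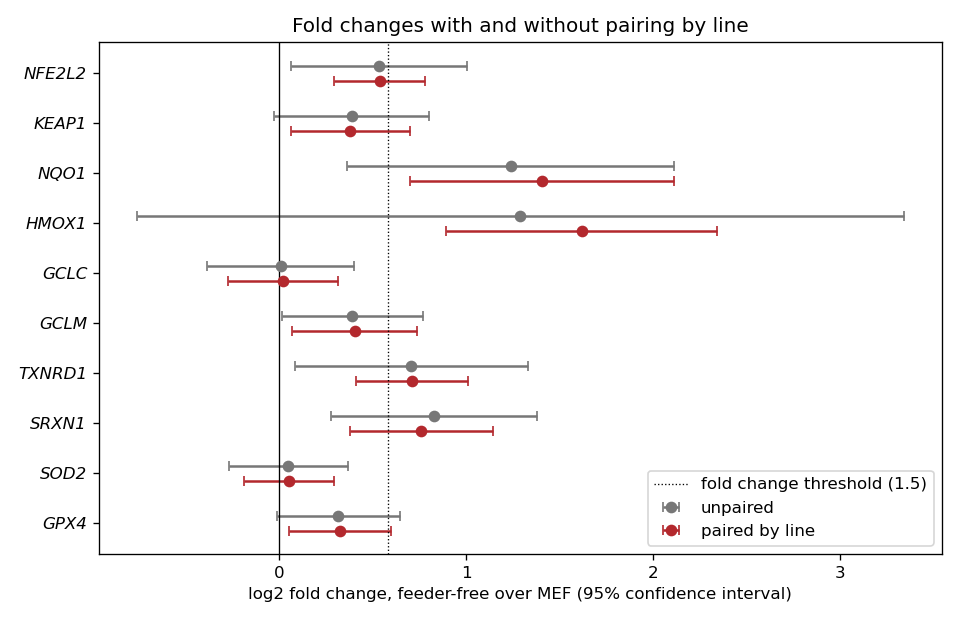
Log2 fold change of feeder-free over MEF for each gene (horizontal axis, points, with 95% confidence intervals as bars), unpaired in gray and paired by line in red, and the fold change threshold as a dotted line. Pairing narrows the interval of HMOX1 from -0.76 to 3.34 to 0.89 to 2.35, and GCLC and SOD2 lie near 0 in both fits.

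Glutamate-cysteine ligase makes the rate-limiting step of glutathione synthesis and consists of a catalytic subunit, GCLC, and a modifier subunit, GCLM, both textbook NRF2 targets. GCLC (chromosome 23, 6982221 to 7026848) had 26.2, 38.1, 39.3 and 27.7 CPM on MEF in lines A, C, D and E, and 26.3, 36.2, 33.5 and 36.1 CPM in feeder-free conditions. It was lower without feeders in lines C and D, higher in line E and level in line A. The paired log2 fold change was 0.02, with a 95% confidence interval of -0.28 to 0.31 (edgeR adjusted p = 0.942), and the sign was negative in the paired fit without line E and in the unpaired fit without any of 4 single libraries (lines A and E on MEF, lines C and E without feeders).

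GCLM (chromosome 3, 49581839 to 49599565) had 7.75, 11.1, 11.2 and 9.11 CPM on MEF and 11.8, 12.8, 13.8 and 12.9 CPM in feeder-free conditions. The conditions did not overlap, and the log2 ratio was between 0.21 and 0.60 in every line. The log2 fold change was 0.39 (95% confidence interval 0.02 to 0.77, adjusted p = 0.214 from edgeR's test), and the paired one 0.40 (0.07 to 0.74, adjusted p = 0.0949), which passed neither threshold. Whether GCLM and GCLC differ from each other was not tested.

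Both genes of the thioredoxin system were higher without feeders in every line. TXNRD1, the cytosolic thioredoxin reductase, is a selenoprotein that returns oxidised thioredoxin to its reduced form. The gene (chromosome 5, 67898938 to 67961974) had 109, 178, 193 and 100 CPM on MEF and 148, 255, 318 and 227 CPM in feeder-free conditions in lines A, C, D and E. Lines C and D were the higher pair in both conditions, and the log2 ratio was 0.44, 0.51, 0.72 and 1.18 in lines A, C, D and E. The log2 fold change was 0.71 in both fits, with a standard error of 0.28 unpaired and 0.13 paired (edgeR adjusted p = 0.180 and 0.00946), a 1.64-fold rise when paired. Without line E the paired value was 0.57, under the fold change threshold, at an adjusted p of 0.0201 from edgeR's test. TXNRD1 overlaps EID3, which had 25 to 537 counts per library, against at least 4432 for TXNRD1.

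SRXN1, sulfiredoxin, repairs peroxiredoxins that have been over-oxidised by peroxide. The gene (chromosome 13, 60403292 to 60410158) had 15.99, 18.6, 18.7 and 19.5 CPM on MEF and 19.1, 26.7, 44.3 and 38.9 CPM in feeder-free conditions. The lines were close together on MEF (18.2 ± 1.51 CPM, SD, n = 4) and far apart without feeders (32.3 ± 11.5 CPM, SD, n = 4), where lines D and E were high and line A was within the MEF range. The log2 fold change was 0.83 unpaired (edgeR, SE 0.24, adjusted p = 0.0964) and 0.76 paired (SE 0.17, adjusted p = 0.0186), a 1.69-fold rise. Without line C, D or E the adjusted p of the paired fit was 0.0504, 0.100 and 0.0563 from edgeR's test, so SRXN1 passed without line A but not without any of the others.

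SOD2 and GPX4 did not pass in either fit. SOD2, the mitochondrial superoxide dismutase (chromosome 9, 95955349 to 95965385), had 60.2, 84.8, 65.5 and 69.2 CPM on MEF and 62.7, 79.9, 66.2 and 80.8 CPM in feeder-free conditions. Lines A and D were nearly level and lines C and E moved in opposite directions, for a paired log2 fold change of 0.05 with a 95% confidence interval of -0.19 to 0.29 (edgeR adjusted p = 0.778). GPX4, the selenoprotein that reduces lipid hydroperoxides in membranes and holds back ferroptosis (chromosome 7, 43588660 to 43591107), had 330, 233, 231 and 265 CPM on MEF and 319, 292, 344 and 361 CPM in feeder-free conditions. It was higher in lines C, D and E and not in line A, whose MEF library was the highest of its condition. The paired log2 fold change of GPX4 was 0.33, with a 95% confidence interval of 0.05 to 0.60 (edgeR adjusted p = 0.0960).

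**Figure D3:**
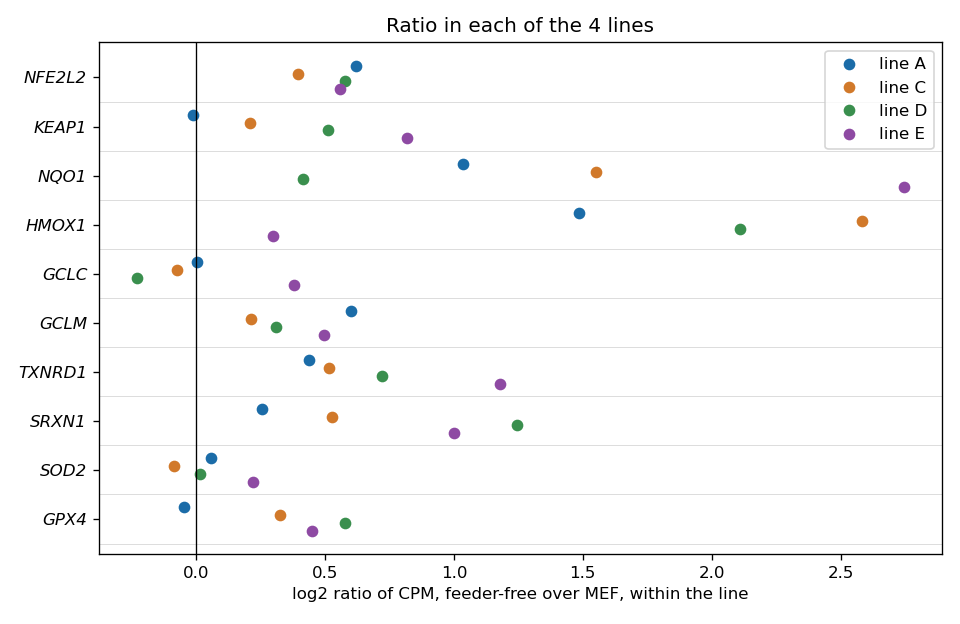
Log2 ratio of CPM in feeder-free over MEF within each line (horizontal axis), 1 point per line, for each of the 10 genes. NFE2L2 has its 4 points between 0.40 and 0.62, while those of HMOX1 run from 0.30 in line E to 2.58 in line C and those of NQO1 from 0.41 in line D to 2.75 in line E.

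The lines did not rank the same way for every gene. Of the 10 genes, 8 were higher without feeders in line A, 8 in line C, 9 in line D and 10 in line E, and the median log2 ratio over the 10 was 0.35, 0.36, 0.54 and 0.53 in these lines, beside 0.009, -0.002, -0.003 and 0.004 over all genes tested. Line E had the highest ratio of the lines for KEAP1, NQO1, TXNRD1, GCLC and SOD2 and the lowest for HMOX1. Line A had the lowest for KEAP1, TXNRD1, SRXN1 and GPX4 and the highest for NFE2L2 and GCLM. The line with the highest HMOX1 level on MEF, line E, had the smallest HMOX1 ratio and the lowest NQO1 level on MEF.

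Each line gave a library in both conditions, so the spread between lines was set against the spread within them by an edgeR quasi-likelihood test of the line terms in the paired fit. At an adjusted P-value under 0.05, HMOX1, TXNRD1 and NFE2L2 differed between lines, 3 of 10 where 11.8 percent of all genes did. The adjusted p was 0.00405 for HMOX1, 0.0271 for TXNRD1 and 0.0342 for NFE2L2 from edgeR's test. HMOX1 had the lowest levels in lines A and C, and TXNRD1 and NFE2L2 the highest in lines C and D, in both conditions. HMOX1 passed without any 1 of the 8 libraries. HMOX1 alone was left when line C or D lost its MEF library, and when line A, C or D lost its feeder-free one. NFE2L2 was also lost without line A on MEF.

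The wider pathway was described with 8 lists that hold 140 further genes, of which 137 had a row and 124 were tested. In the unpaired fit 1 of the 124 was higher and 0 were lower, beside 0.724 and 1.00 percent of all genes. In the paired fit (replicate block) 7 rose and 3 fell, beside 5.52 and 4.53 percent of all genes, so the lists as a whole lay near or under the share of all genes in both fits. The median unpaired log2 fold change was 0.11 over the 124 genes, with 78 of the 124 above 0. Over all genes tested the median was 0.01, with 50.6 percent above 0, a difference that was not tested. The 10 genes above therefore had a higher median than the lists around them, a difference that was not tested.

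**Figure D4:**
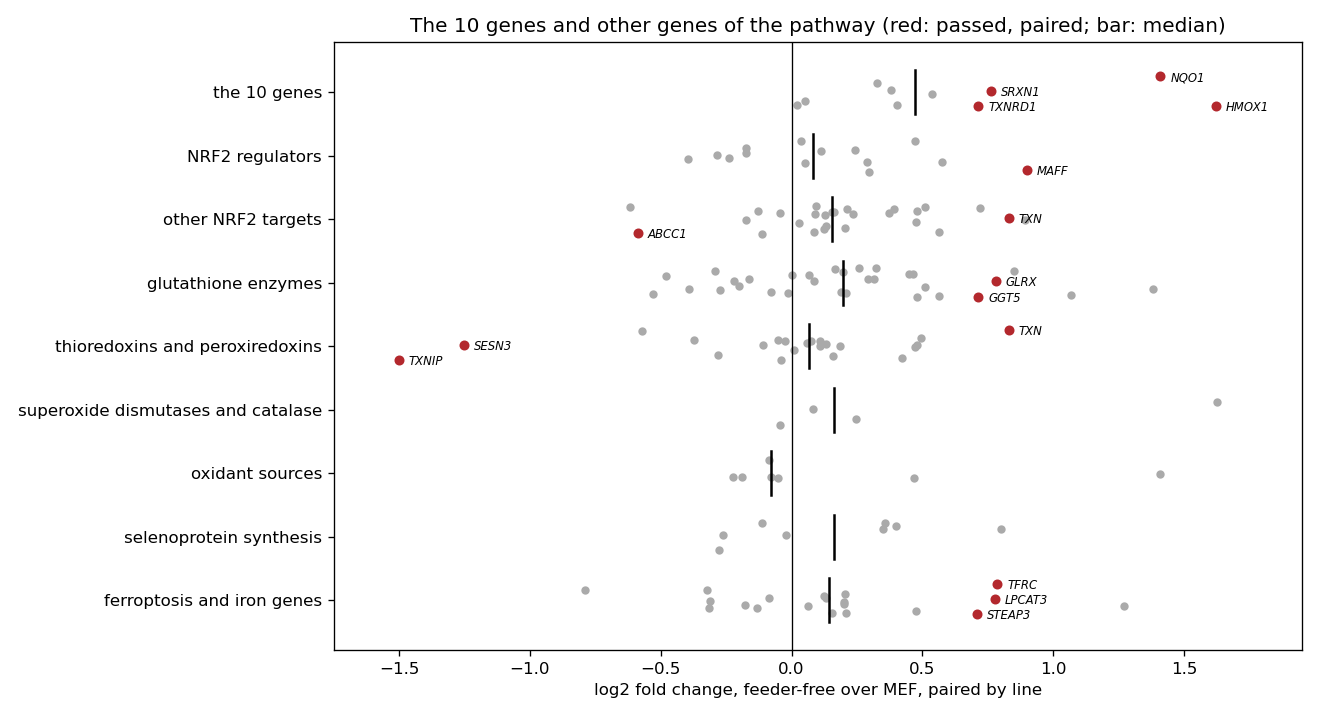
Paired log2 fold change (horizontal axis) of the 10 genes and of the tested genes in 8 lists of related genes, 1 point per gene, with genes that passed both thresholds in red and named, and the list median as a bar. Red points lie on both sides of 0 in the lists of NRF2 targets and of thioredoxins. The short lists of dismutases, oxidant sources and selenoprotein synthesis (4, 7 and 8 genes tested) have none.

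Among 14 regulators that share the pathway with NRF2 and KEAP1, MAFF rose in the paired fit and 13 did not pass both thresholds. Over all genes 5.52 percent passed as higher, so 1 of 14 lay near that share. MAFF encodes a small MAF protein, the class with which NRF2 pairs on DNA, and had a mean of 6.10 ± 1.07 CPM on MEF and 11.8 ± 3.84 CPM without feeders (SD, n = 4 each). Its paired log2 fold change was 0.90 (edgeR adjusted p = 0.0156). The other small MAF genes, MAFG and MAFK, did not pass, at 0.05 and 0.47 on the same scale.

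Of 27 other NRF2 targets tested, TXN rose, ABCC1 fell and 25 did not pass in the paired fit, shares under the 5.52 and 4.53 percent of all genes, and the median unpaired log2 fold change was 0.16. TXN, thioredoxin itself and the substrate of TXNRD1, had a mean of 37.0 ± 9.62 CPM on MEF and 64.9 ± 10.5 CPM without feeders (SD, n = 4 each). Its paired log2 fold change was 0.83 (edgeR, SE 0.15, adjusted p = 0.00729), with all feeder-free libraries above all MEF libraries by a narrow gap, 49.16 CPM against 49.15. ABCC1, a pump that exports glutathione conjugates, fell from 93.5 ± 2.35 to 62.5 ± 7.30 CPM (SD, n = 4 each). Its paired log2 fold change was -0.587 (edgeR adjusted p = 0.0105), in size just past the threshold of 0.585. The unpaired value was -0.580 (edgeR adjusted p = 0.0414), just short of that threshold. TXN overlaps LOC132346006 and ABCC1 overlaps ABCC6, and as no source used here gives the strandedness of counting, these counts are less certain. SLC7A11, which brings cystine into the cell, had a paired log2 fold change of 0.48 (edgeR adjusted p = 0.467). SLC7A11 varied from 5.43 to 18.8 CPM on MEF and from 6.54 to 24.9 CPM in feeder-free conditions.

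In the thioredoxin and peroxiredoxin list of 22 genes, TXNIP and SESN3 fell and TXN rose in the paired fit, and 19 did not pass. Over all genes 5.52 percent rose and 4.53 percent fell. The 1 of 22 that rose is under its share and the 2 that fell are above theirs, a difference that was not tested. TXNIP binds reduced thioredoxin and inhibits it, and is also known to limit glucose uptake. It had 71.2 to 130 CPM on MEF and 10.7 to 52.3 CPM in feeder-free conditions, with no overlap. Its log2 fold change was -1.33 unpaired (edgeR, SE 0.43, adjusted p = 0.117) and -1.50 paired (SE 0.26, adjusted p = 0.00660). SESN3, a sestrin, had a paired log2 fold change of -1.25 (edgeR, SE 0.14, adjusted p = 0.00132), lower in 4 of 4 lines, and overlaps LOC101906086. Its levels were 62.6 to 131 CPM on MEF and 20.1 to 73.8 CPM in feeder-free conditions, so the conditions overlapped. The unpaired log2 fold change of SESN3 was -1.14 (edgeR, SE 0.40, adjusted p = 0.141). Among the peroxiredoxins, PRDX1 had a mean of 1490 ± 228 CPM on MEF and 1624 ± 164 CPM without feeders (SD, n = 4 each), a paired log2 fold change of 0.13.

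Of 31 glutathione enzymes tested, GLRX and GGT5 rose in the paired fit and 29 did not pass, near the 5.52 percent of all genes that rose, with a median unpaired log2 fold change of 0.23. GLRX, glutaredoxin, had a paired log2 fold change of 0.78 (edgeR adjusted p = 0.0407) and overlaps RHOBTB3. GGT5, a gamma-glutamyltransferase, rose from 88.7 ± 38.4 to 141 ± 48.3 CPM (SD, n = 4 each), at a paired log2 fold change of 0.71 (edgeR adjusted p = 0.0111).

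Of 20 iron and ferroptosis genes tested, TFRC, LPCAT3 and STEAP3 rose in the paired fit and 17 did not pass, where 5.52 percent of all genes rose. TFRC, the transferrin receptor that brings iron into the cell, was the 1 gene of the lists to pass unpaired. It had 36.6 to 56.1 CPM on MEF and 73.8 to 100.04 CPM without feeders, so that its log2 fold change was 0.78 (edgeR, SE 0.16, adjusted p = 0.0494). Without any 1 library its adjusted p lay between 0.0592 and 0.122 from edgeR's test, and it also missed the threshold with no scaling (0.0566) and under limma-voom (0.0522), while in the paired edgeR fit it was 0.0164. LPCAT3, which places polyunsaturated fatty acids into phospholipids, and STEAP3, an iron reductase, rose in the paired fit, at log2 fold changes of 0.78 and 0.71 (edgeR adjusted p = 0.00641 and 0.0262). LPCAT3 overlaps EMG1. The ferritin chains FTH1 and FTL, which store iron and are NRF2 targets, had paired log2 fold changes of 0.12 and 0.48 and did not pass (edgeR adjusted p = 0.576 and 0.0864). FTL overlaps TULP2.

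Of 4 genes for the other superoxide dismutases, their copper chaperone and catalase, 0 passed in either edgeR fit. SOD1 had a mean of 412 ± 64.9 CPM on MEF and 487 ± 66.3 CPM without feeders (SD, n = 4 each), and CAT had 133 ± 6.77 and 129 ± 5.04 CPM (SD, n = 4 each). SOD3 had 0.0363 to 0.640 CPM over the 8 libraries and as few as 2 counts. Of 7 oxidant sources tested, 0 passed in either fit: CYBA, NOX4 and ERO1A had paired log2 fold changes of 0.47, 1.41 and -0.22 (edgeR adjusted p = 0.0318, 0.0589 and 0.300), and CYBA was short of the fold change threshold. Of 8 genes of selenoprotein synthesis, on which TXNRD1 and GPX4 depend, 0 passed: SECISBP2, TRNAU1AP and SEPHS2 had 0.40, 0.36 and -0.26 (edgeR adjusted p = 0.0516, 0.0781 and 0.1503). In the paired fit 5.52 percent of all genes passed as higher and 4.53 percent as lower. Lists of 4, 7 and 8 genes can hold none at these shares.

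Markers of other cell types moved with the condition in part. In bulk libraries, fewer cells of a type and less RNA per cell cannot be told apart. The 20 fibroblast genes had a summed level of 1804 to 2293 CPM on MEF and 1350 to 3675 CPM in feeder-free conditions, and in the paired fit COL3A1 and POSTN rose and COL1A2 and PRRX1 fell. The 10 trophectoderm genes summed to 688 to 1227 CPM on MEF and 750 to 3013 CPM without feeders, where KRT8, KRT18, PTGS2 and SFN rose and GATA2 fell in the paired fit, while CDX2 and IFNT2 had 0 counts in all 8 libraries. The 9 hypoblast genes summed to 181 to 212 CPM on MEF and 236 to 378 CPM in feeder-free conditions, with APOA1 higher and GATA6, GATA4 and SOX17 below the filter on low counts. The 6 mesoderm genes summed to 5.10 to 9.42 CPM and 9.85 to 13.1 CPM, with EOMES higher. Of the fibroblast, trophectoderm, hypoblast and mesoderm genes, 18, 8, 5 and 4 were tested. Over all genes 5.52 percent passed as higher and 4.53 percent as lower in the paired fit. The methods also describe taking reads of a pure MEF culture out of the counts of bESCs on MEF. The part of these markers and of that step in the values of the 10 genes was not tested.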

How the data were processed

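The authors trimmed reads with Trimmomatic, aligned them to ARS-UCD2.0 with STAR, removed optical duplicates with Picard and alignments of low mapping quality with samtools, and deposited raw counts per gene from featureCounts (Subread 1.6.2 in the submitters' processing notes). Counts were used as deposited, leaving out 3 genes with no values. The test was edgeR's quasi-likelihood one (edgeR 4.0.16, R 4.3.3, with filterByExpr and TMM), first with condition as the only term, and P-values were adjusted by Benjamini-Hochberg across 15744 genes. Log2 CPM used a prior count of 2. Coordinates came from RefSeq.

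Since each line gave a library to either condition, a second fit added line as a replicate block. Deviations from the condition mean correlated at 0.42 to 0.66 within lines and at -0.52 to 0.25 between them. No 2 libraries of a condition, which always came from different lines, were alike within counting noise (chi-square at least 40.8 per degree of freedom).

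The 10 genes and all lists were chosen with earlier results of these data known. From the lists, every gene that passed in either fit was named, and in lists with none the 3 with the smallest P-values. MAFG, MAFK, SLC7A11, PRDX1, FTH1, FTL, GSR, NFE2L3, BACH1, MGST1, TXNDC17 and GSTCD were named after their values were seen. Alternatives were RLE factors, no scaling, other filters, the likelihood ratio test, DESeq2 1.42.0, limma-voom (limma 3.58.1), other fold change thresholds and leaving out libraries. Paired fits without a line or with another test or threshold were added after the data were seen. The scripts were tested on simulated data.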

Additional observations from a re-analysis of the deposited data

Results flagged for a closer look

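Of 62 sets of 4 libraries examined for a library far from the other 3, 4 had one, where chance gives about 3.1. Line D without feeders totalled 102351560 counts where the others totalled 49671478 to 51320214. Line A on MEF had a mitochondrial share of 4.11 percent where the others had 1.91 to 2.25 percent. The same library was the highest of its condition for CYBA, at 4.78 log2 CPM against 4.52 to 4.53. The feeder-free library of line C was the lowest for TXN, at 5.62 log2 CPM against 6.12 to 6.16. None of the 10 genes had such a library in either condition.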

How the results depend on the processing

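None of the 10 genes passed as lower under any alternative. As higher, 0 passed unpaired, 2 (NQO1 and SRXN1) under the likelihood ratio test and under DESeq2, 4 with the replicate block under TMM, RLE or no scaling, and 0 to 1 when single libraries were left out, SRXN1 when feeder-free line A was absent. In the replicate block, 2 of the 4 passed at an absolute log2 fold change no smaller than 1, a setting for which no share of all genes was taken. Without both libraries of 1 line, 2 to 4 of the 10 genes passed as higher. Over all genes, 918, 561, 376 and 662 passed as higher without line A, C, D and E. Pathway genes higher unpaired numbered 1. They numbered 0 with no scaling, under limma-voom and at a log2 fold change of at least 1, 2 at 10 or more counts in every library, 3 under the likelihood ratio test, 6 under DESeq2, 7 with the replicate block (7 with RLE, 10 with no scaling) and 0 to 3 without single libraries. Pathway genes lower numbered 0, but 1 under the likelihood ratio test, limma-voom and no fold change threshold, 2 under DESeq2, 3 with the replicate block (2 with RLE or no scaling) and 0 to 2 without single libraries. Paired and with no fold change threshold, 12 of 124 were higher and 5 lower, where 7.67 percent of all genes were higher. At a paired log2 fold change of at least 1, 0 were higher, and the share of all genes was not taken there. The 3 genes that differed between lines became 1 to 4 without single libraries. The log2 fold change of GCLC ran from -0.087 to 0.105 and that of SOD2 from -0.017 to 0.156 without single libraries, and that of GCLC from -0.089 to 0.103 in the paired fit without 1 line. The cause of these shifts was not tested. The other 8 genes kept a log2 fold change above 0 under all 18 alternatives with a fit of their own. Over all genes, 272 passed unpaired, 1582 paired, 837 under the likelihood ratio test, 1212 under DESeq2, 412 at 10 or more counts in every library, 174 with no scaling, 170 with no filter, 490 without line A in feeder-free conditions and 0 to 6 without any other single library. Those higher numbered 114 unpaired, 869 paired, 448 under the likelihood ratio test, 695 under DESeq2 and 79 under limma-voom. Those lower numbered 158, 713, 389, 517 and 150 in the same order. With the replicate block, 910 were higher with RLE and 1013 with no scaling. Each of the 10 genes had at least 68 counts in every library, while SOD3 and NOX4 had as few as 2 and 6. The effect of unequal depth on the calls was not tested.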

Other observations

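Of the 124 tested genes of the lists, 17 passed an adjusted P-value under 0.05 in the paired edgeR fit, as did 2486 of all 15744 genes, and 7 of the 17 were short of the fold change threshold. CYBA, given above, is one of these, and the other 6 follow, named after their values were seen. GSR, the reductase that regenerates glutathione, had a mean of 152 ± 14.2 CPM on MEF and 225 ± 25.7 CPM without feeders (SD, n = 4 each), with no overlap between conditions. Its paired log2 fold change was 0.56 (edgeR adjusted p = 0.00742), with log2 ratios of 0.46 to 0.65 over the lines. NFE2L3, a relative of NFE2L2, had 44.6 ± 6.78 CPM and 66.4 ± 11.1 CPM (SD, n = 4 each), also without overlap, at a paired log2 fold change of 0.57 (edgeR adjusted p = 0.0136). BACH1, a repressor that competes with NRF2 at antioxidant response elements and is known for holding HMOX1 down, had 51.0 ± 4.98 CPM and 38.7 ± 2.60 CPM (SD, n = 4 each). It was lower without feeders in 4 of 4 lines, with no overlap, at a paired log2 fold change of -0.39 (edgeR adjusted p = 0.0482), and overlaps LOC112448281. MGST1, a microsomal glutathione transferase, and TXNDC17, a thioredoxin-like protein, had paired log2 fold changes of 0.51 and 0.47 (edgeR adjusted p = 0.0265 and 0.0444), both with overlap between conditions, and TXNDC17 overlaps KIAA0753. GSTCD, listed with the glutathione enzymes, was lower without feeders with no overlap, at -0.48 on the same scale (edgeR adjusted p = 0.0260). All feeder-free libraries lay above all MEF libraries for 6.21 percent of all genes, and the share that lay below was not taken. As these genes were taken by their paired P-values, the lack of overlap is a description and no further test.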
